A study of Homo sapiens with 18 samples.

Results

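The genes described here encode 10 enzymes that make serine, asparagine, proline and cysteine or that pass serine's carbon into the folate pool: *PHGDH*, *PSAT1*, *PSPH*, *SHMT2*, *MTHFD2*, *ASNS*, *ALDH18A1*, *PYCR1*, *CTH* and *CBS*. They were picked by symbol, and all 10 have a row among the 28266 gene rows of the count table, of which 14341 were tested, 9 of the 10 enzymes among them. RNA was sequenced in bulk from IMR90 ER:RAS cells, in 6 groups of 3 libraries. IMR90, listed by the study among its cell lines, consists of fibroblasts from human lung. Every group carries ER:RAS, a virally delivered fusion of the oestrogen receptor with oncogenic RAS that 4-hydroxytamoxifen (4OHT) switches on. Cells received 100 nM 4OHT, which made them senescent, or DMSO as the control. On day 7 each state was given DMSO, IMP1088 at 300 nM or, at 1.5 µM, DDD86481 (named PCLX001 in the table) for 3 days, and RNA was collected on day 10. Both compounds inhibit the N-myristoyltransferases NMT1 and NMT2 (NMTi), which attach a fatty acid to the start of proteins such as the ARF GTPases of the Golgi. The doses of the inhibitors differ, so their values are set side by side and not compared with each other. The study asked how NMTi act on senescent cells, and the comparisons below follow its layout: senescent against control cells, each inhibitor against DMSO in each state, and the difference of each inhibitor's effect between the states.

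Serine is made from a glycolytic intermediate in 3 steps, by PHGDH, the entry enzyme, then PSAT1, a transaminase, and then PSPH, a phosphatase. SHMT2 splits serine into glycine and a folate-bound carbon in mitochondria, and MTHFD2 oxidizes that carbon unit. ASNS makes asparagine from aspartate, with glutamine giving the nitrogen. ALDH18A1 turns glutamate into the precursor from which PYCR1, in mitochondria, makes proline, an amino acid that collagen-producing fibroblasts use in quantity. CBS joins serine to homocysteine, and CTH splits the product to give cysteine. Many of these genes are textbook targets of ATF4, a transcription factor made when the integrated stress response slows general translation, and it binds the C/EBP-ATF composite element together with C/EBP proteins.

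Library totals ran from 16143716 to 23189950 counts, and values are counts scaled to a common library size by TMM (CPM). A count of 3, the number that a count of 0 allows, came to between 0.121 and 0.187 CPM, a floor that covers counting error only. The fibroblast label was checked against 10 marker genes, none of which was at or under 3 counts in every library. Their summed level ran from 24800 to 31500 CPM in control cells with DMSO and from 16600 to 17100 CPM in senescent cells with DMSO. Between these groups mean *DCN* fell from 3040 to 7.73 CPM, *LUM* from 314 to 8.39 and *COL3A1* from 3700 to 296. Only *VIM* had a higher mean in senescent cells, 11700 against 5040 CPM, so the sum does not stand for each marker. With an inhibitor the sum ran from 30600 to 36300 CPM in control and from 11600 to 12300 CPM in senescent cells. Epithelial markers summed to at most 1.49 CPM and leukocyte markers to at most 0.494 CPM in any library. Endothelial markers summed to between 1.05 and 1.73 CPM in control cells with DMSO and between 10 and 10.6 CPM in senescent cells with DMSO, and to between 2.62 and 3.79 CPM and between 5.4 and 8.57 CPM with an inhibitor. The part of either marker list in the results was not tested. The label of senescence was checked too: *CDKN1A*, which encodes the cell-cycle inhibitor p21, was 5.65-fold higher and *LMNB1*, a nuclear lamina gene lost in senescence, was 12.9-fold lower in senescent than in control cells, both with DMSO. Among libraries, control DDD86481 replicate 1 stood above the other members of its group for most of the 10 enzymes, and results that rest on it are given with and without it. In bulk RNA, fewer cells of a kind and less RNA per cell cannot be told apart.

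Counts of a pair of the enzymes are too few to read as expression. *CBS* had between 0 and 4 counts per library, 10 in all, with a count in 5 of 18 libraries, and it did not pass the filter on low counts. Its near-identical copy *CBSL* had 0 counts, and so did *U2AF1*, a splicing factor gene that nearly every cell uses, and its own copy *U2AF1L5*, which lie in the same duplicated stretch of the reference genome. The *CBS* row therefore says nothing about the level of this enzyme's mRNA, and no fold is given. *ASNS* had between 4 and 22 counts per library, 268 in all. In RefSeq (GRCh38.p14), *CZ1P-ASNS*, a readthrough gene that had 62 counts in all, covers 99.4% of the span of *ASNS*, and in GENCODE 49.3% of the exonic bases of *ASNS* lie in another gene on the same strand. How reads from shared bases were counted is not given in the sources used here, and its part in the low *ASNS* counts was not tested. The exons of *PYCR1*, *MTHFD2* and *SHMT2* overlap genes on the opposite strand over 15.6%, 11.6% and 7.67% of their bases, and the other 5 enzymes of the list (*PHGDH*, *PSAT1*, *PSPH*, *ALDH18A1* and *CTH*) share no exonic base with another annotated gene.

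Promoter sequence is shown for the enzymes whose promoter held a motif of the stress pathways, since many of these genes are known targets of stress-induced factors. RefSeq gave a promoter, 250 bases before to 50 bases after a gene's start, for 7 of the 10 enzymes, with 10 promoters in all. The motifs TGATGNAA (the C/EBP-ATF composite element), CACGTG (the E-box, to which MYC and related factors bind) and TGACGTGG (the element of the unfolded protein response) were searched on both strands, and no matches overlapped. *ASNS* alone held the composite element, from 68 to 61 bases before its start (chr7:97872443-97872502, minus strand, GRCh38.p14). *ALDH18A1* held an E-box from 136 to 131 bases before its start (chr10:95656816-95656873, minus strand) and the unfolded protein response element, on the opposite strand, from 60 to 53 bases before it (chr10:95656738-95656797). The windows below run 5′ to 3′ along each gene with the match in capitals.
ASNS composite element: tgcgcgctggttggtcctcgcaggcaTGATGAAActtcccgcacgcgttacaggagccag
ALDH18A1 E-box: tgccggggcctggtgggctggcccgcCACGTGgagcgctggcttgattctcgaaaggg
ALDH18A1 unfolded protein response element: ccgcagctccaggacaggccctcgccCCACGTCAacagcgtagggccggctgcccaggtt
Of all 35116 promoters in the table, 3.62% held the composite element, 7.26% the E-box and 0.729% the unfolded protein response element. A match describes the letters of the window and is no evidence of a bound factor, and the absence of a match from the other promoters says only that these letters are not in those windows.

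Levels were compared between genes only per kilobase of the canonical transcript. In control cells with DMSO, *SHMT2* stood at 75.1 ± 4.55 CPM per kb (SD, n = 3 here and below) and *PHGDH* at 74.5 ± 3.86, a pair that differed by less than their spread. *ALDH18A1* at 50.4 ± 2.46 and *PYCR1* at 48 ± 4.15 CPM per kb followed and also overlapped. *PSAT1* stood at 36.0 ± 4.71, *MTHFD2* at 19.1 ± 1.94 and *PSPH* at 9.78 ± 0.719 CPM per kb. *CTH*, at 1.09 ± 0.169 CPM per kb, was the lowest of those tested other than *ASNS*. The *ASNS* row, at 0.225 ± 0.125 CPM per kb, is not ranked, since its counts are too few to read as expression. In senescent cells with DMSO, *SHMT2* was again highest, at 81.1 ± 1.95 CPM per kb. *PHGDH*, level with *SHMT2* in control cells, stood at 20.2 ± 3.28 CPM per kb there, beside *PSAT1* at 22.5 ± 5.76 and *MTHFD2* at 24.1 ± 3.18, and these last 3 overlapped.

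Senescent cells held less mRNA of the entry enzyme of serine synthesis and of both proline enzymes than control cells, and more of *CTH*. With DMSO in both arms, 1 of the 9 enzymes tested was higher in senescent cells and 4 were lower, where 32.5% of all genes tested were higher and 36% were lower at an adjusted p under 0.05. The median log2 fold change of the 9 was -0.17, or -0.34 without *ASNS*, beside -0.051 over all genes. *PHGDH* had 139, 146 and 132 CPM in the 3 control libraries and 30.8, 40 and 42.4 CPM in the 3 senescent ones. Every senescent library lay far below every control library, a 3.69-fold difference (log2 fold change -1.88 ± 0.133 SE, adjusted p = 1.05e-10, edgeR). *PSAT1*, the next step, had 79.3, 89.8 and 69 CPM in control and 38.3, 63.4 and 47 CPM in senescent libraries, 1.6-fold lower without overlap (adjusted p = 0.00746). This call was lost without senescent DMSO replicate 1 (log2 fold change -0.52, adjusted p = 0.053). *PSPH*, the last step, had 17.6 to 20.2 CPM in control and 15.7 to 18.5 CPM in senescent cells, ranges that overlapped (adjusted p = 0.318).

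Both enzymes of proline synthesis fell with senescence. *ALDH18A1* had 178, 165 and 163 CPM in control libraries and 108, 100 and 107 CPM in senescent ones, 1.61-fold lower (log2 fold change -0.68 ± 0.0981, adjusted p = 3.6e-06). *PYCR1* had 109, 99.7 and 119 CPM in control libraries and 73.1, 69.8 and 85.3 CPM in senescent ones, 1.43-fold lower (log2 fold change -0.52 ± 0.124, adjusted p = 0.00102). For each of these genes the lowest control library lay above the highest senescent library, and the calls held without any 1 of the 6 libraries. *CTH*, which releases cysteine, went the other way. It had 2.34, 1.89 and 2.59 CPM in control libraries, from 47 to 58 counts each, and 12.9, 12 and 12 CPM in senescent ones, a 5.43-fold rise (log2 fold change 2.44 ± 0.243, adjusted p = 2.14e-08). *SHMT2* and *MTHFD2*, which act in mitochondrial folate metabolism, did not pass the test: the log2 fold change was 0.11 ± 0.099 for *SHMT2* (adjusted p = 0.324) and 0.33 ± 0.157 for *MTHFD2* (adjusted p = 0.0713). DESeq2 called *MTHFD2* higher (log2 fold change 0.36, adjusted p = 0.0437). *ASNS* had 4 to 19 counts per control library and 7 to 22 per senescent library (adjusted p = 0.236), too few to place it.

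**Figure D1:**
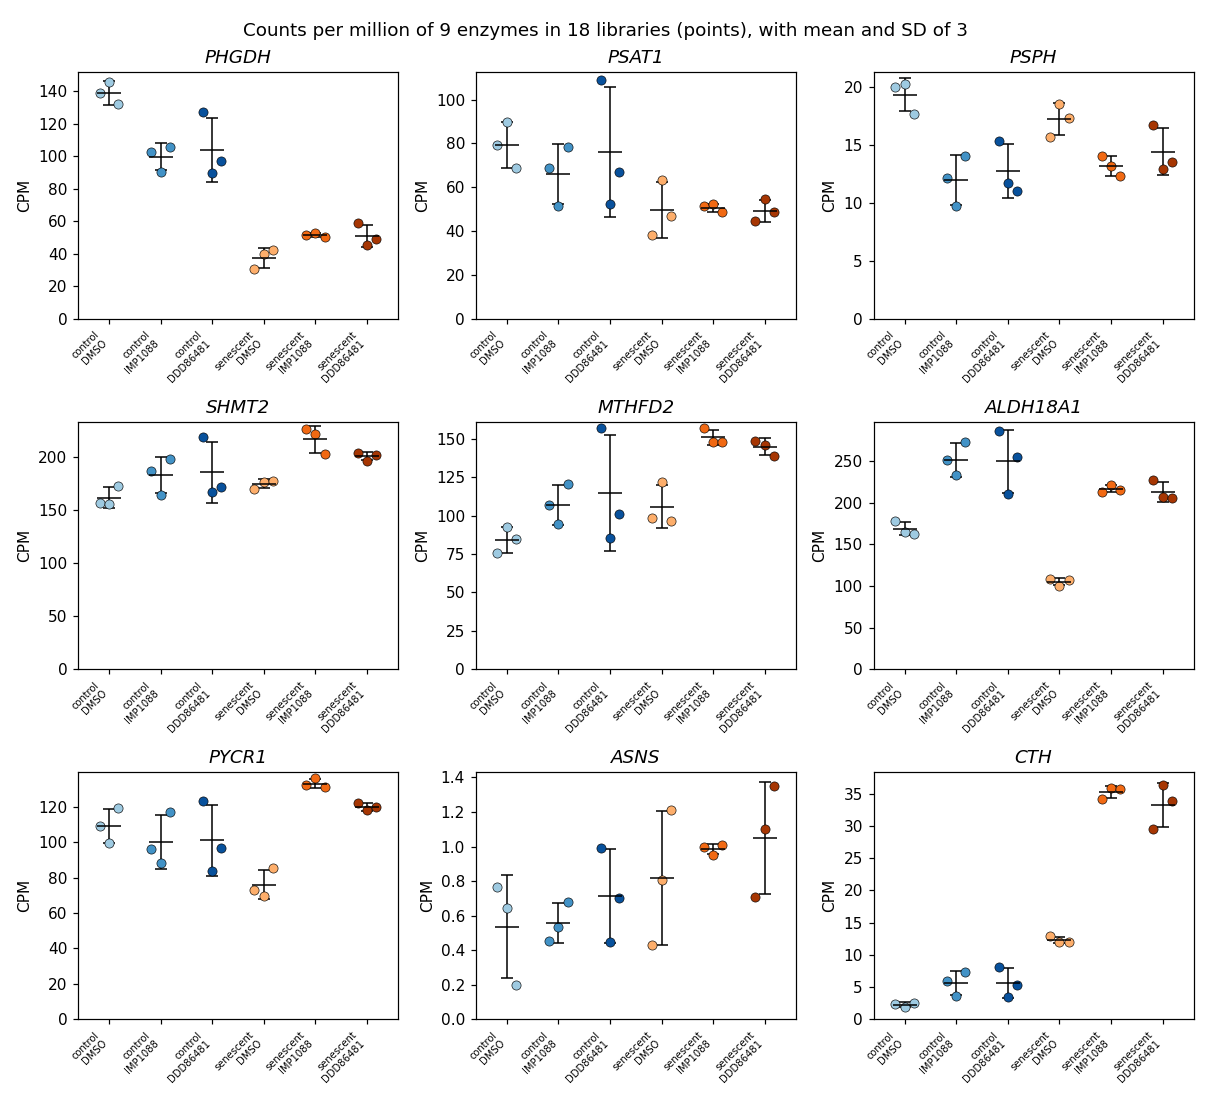
CPM (vertical axes, from 0, with a scale for each gene) of the 9 enzymes tested in each of 18 libraries, with points for libraries, horizontal bars for the mean and whiskers for the SD of 3 libraries. *PHGDH* runs from 132 to 146 CPM in control cells with DMSO and from 30.8 to 42.4 CPM in senescent cells with DMSO, *CTH* rises from 12.3 to 35.3 CPM on average with IMP1088 in senescent cells, and *ASNS* stays at or below 1.35 CPM.

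Given to senescent cells, IMP1088 raised 6 of the 9 enzymes and lowered 1, where 20.6% of all genes tested were higher and 23.9% were lower. The median log2 fold change of the 9 was 0.45 beside -0.044 over all genes. DDD86481 raised 5 and lowered 0, with a median of 0.44 beside -0.037, where 20.1% of all genes were higher and 23.1% lower. An unadjusted p under 0.05 and DESeq2 likewise found 0 enzymes lower with DDD86481. The DMSO libraries are shared between these comparisons, so the second is no independent repeat of the first. *CTH* showed the largest change among the 9 with each inhibitor. Against 12.9, 12 and 12 CPM with DMSO, it had 34.2, 35.9 and 35.7 CPM with IMP1088, a 2.87-fold rise (log2 fold change 1.52 ± 0.204, adjusted p = 5.35e-06). With DDD86481 it had 29.6, 36.3 and 33.8 CPM, a 2.7-fold rise (log2 fold change 1.44 ± 0.204, adjusted p = 1.11e-05). All 6 treated libraries exceeded all 3 with DMSO by more than the spread within groups.

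The proline enzymes, low in senescent cells with DMSO, were up with both inhibitors. *ALDH18A1* had 213, 221 and 216 CPM with IMP1088 and 227, 207 and 206 CPM with DDD86481, against 108, 100 and 107 CPM with DMSO. These were rises of 2.06-fold (log2 fold change 1.04 ± 0.0986, adjusted p = 6.24e-08) and 2.03-fold (1.02 ± 0.0986, adjusted p = 9.65e-08), without overlap. *PYCR1* had 132, 136 and 131 CPM with IMP1088 and 122, 118 and 120 CPM with DDD86481, against 73.1, 69.8 and 85.3 CPM with DMSO. It rose 1.75-fold with IMP1088 (adjusted p = 2.65e-05) and 1.58-fold with DDD86481 (adjusted p = 0.000245). The calls of *CTH*, *ALDH18A1* and *PYCR1* held without any 1 library in both comparisons.

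Of the serine pathway, only *PHGDH* was called higher with both inhibitors, and the steps were not tested against each other. *PHGDH* had 51.4, 52.8 and 50.6 CPM with IMP1088 and 58.8, 45.6 and 49.1 CPM with DDD86481, against 30.8, 40 and 42.4 CPM with DMSO. Each treated library lay above each DMSO library, with rises of 1.37-fold (adjusted p = 0.00883) and 1.36-fold (adjusted p = 0.0109), and both groups stayed below every control library. *PSAT1* had log2 fold changes of 0.033 ± 0.212 with IMP1088 and -0.0044 ± 0.213 with DDD86481 (adjusted p = 0.917 and 0.991), and its treated libraries, from 44.7 to 54.7 CPM, lay inside the range of the DMSO libraries, 38.3 to 63.4 CPM. *PSPH* had 14, 13.2 and 12.3 CPM with IMP1088 against 15.7, 18.5 and 17.3 CPM with DMSO, 1.3-fold lower (adjusted p = 0.0445). That call was lost on leaving out senescent DMSO replicate 2 or 3 or any of the 3 senescent IMP1088 libraries (log2 fold change between -0.43 and -0.32, adjusted p up to 0.14). With DDD86481 the log2 fold change of *PSPH* was -0.26 ± 0.148 (adjusted p = 0.171).

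In the mitochondrial folate steps, *MTHFD2* had 157, 148 and 148 CPM with IMP1088 and 149, 146 and 139 CPM with DDD86481, against 98.7, 122 and 96.5 CPM with DMSO. It rose 1.43-fold (adjusted p = 0.0112) and 1.37-fold (adjusted p = 0.0249), without overlap. *SHMT2* had 227, 222 and 203 CPM with IMP1088 against 170, 177 and 178 CPM with DMSO, 1.24-fold higher (adjusted p = 0.015). With DDD86481 it had 204, 197 and 202 CPM, a log2 fold change of 0.20 ± 0.0991 that did not pass (adjusted p = 0.115), though it did in a fit of those groups alone (0.23, adjusted p = 0.0398). *ASNS* had 17 to 19 counts per library with IMP1088 and 13 to 22 with DDD86481 against 7 to 22 with DMSO (adjusted p = 0.646 and 0.527).

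Several of these smaller rises rested on single libraries. With IMP1088, leaving out senescent DMSO replicate 1 ended the calls of *PHGDH* (log2 fold change 0.33, adjusted p = 0.0683) and *SHMT2* (0.29, adjusted p = 0.0537), leaving out senescent IMP1088 replicate 1 that of *SHMT2* (0.28, adjusted p = 0.0607), and leaving out senescent DMSO replicate 3 that of *MTHFD2* (0.45, adjusted p = 0.0551). With DDD86481, the number of enzymes called fell from 5 to 3 without senescent DMSO replicate 1 or without senescent DDD86481 replicate 1, since *PHGDH* (0.31, adjusted p = 0.0801, and 0.33, adjusted p = 0.0723) and *MTHFD2* (0.41, adjusted p = 0.0878, and 0.43, adjusted p = 0.0657) were lost. *MTHFD2* was also lost without senescent DMSO replicate 3 (0.39, adjusted p = 0.099) or senescent DDD86481 replicate 2 (0.45, adjusted p = 0.0577).

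**Figure D2:**
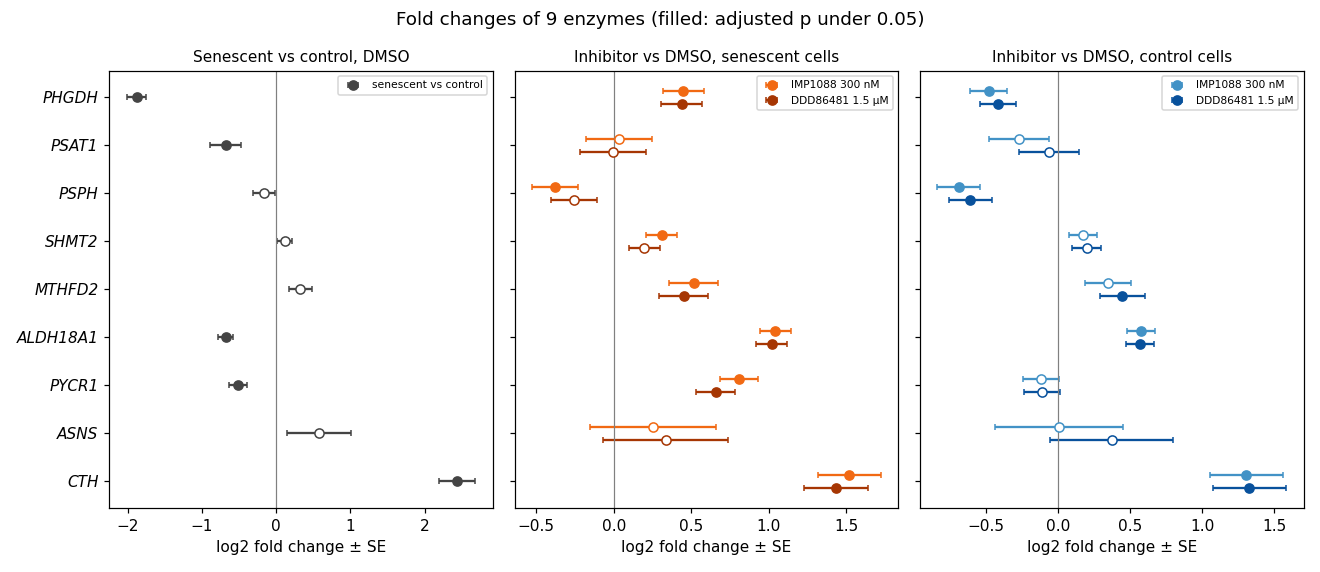
Log2 fold change (horizontal axes, whiskers for the SE, a scale for each panel) of the 9 enzymes tested, with filled points where the adjusted p was under 0.05. *PHGDH*, *PSAT1*, *ALDH18A1* and *PYCR1* lie below 0 for senescent against control cells, and *CTH* lies above 0 in all 5 comparisons, from 1.31 to 2.44.

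In control cells the inhibitors raised *CTH* and *ALDH18A1* and lowered *PHGDH* and *PSPH*. IMP1088 raised 2 of the 9 enzymes and lowered 2, where 16.3% of all genes tested were higher and 17.4% lower. DDD86481 raised 3 and lowered 2, where 17.8% were higher and 18.7% lower. With 9 genes, counts this close to the background are not read as a result about the enzymes together. *CTH* had 5.92, 3.65 and 7.29 CPM with IMP1088 and 8.09, 3.53 and 5.37 CPM with DDD86481, against 2.34, 1.89 and 2.59 CPM with DMSO. It rose 2.47-fold (adjusted p = 0.00053) and 2.51-fold (adjusted p = 0.000454), and without control DDD86481 replicate 1 the second call remained (log2 fold change 1.00 to 1.57 over the libraries left out in turn). *ALDH18A1* had 251, 233 and 273 CPM with IMP1088 and 286, 211 and 255 CPM with DDD86481, against 178, 165 and 163 CPM with DMSO, rises of 1.49-fold (adjusted p = 0.000128) and 1.48-fold (adjusted p = 0.00015).

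*PHGDH* fell in control cells, to 103, 90.2 and 106 CPM with IMP1088 and 127, 89.9 and 97 CPM with DDD86481 from 139, 146 and 132 CPM with DMSO. The differences were 1.39-fold (log2 fold change -0.48 ± 0.127, adjusted p = 0.00654) and 1.33-fold (-0.41 ± 0.127, adjusted p = 0.0154), and no treated library reached a DMSO library. The DDD86481 call was lost without control DMSO replicate 2 (-0.37, adjusted p = 0.0544), control DDD86481 replicate 2 (-0.32, adjusted p = 0.0804) or control DDD86481 replicate 3 (-0.36, adjusted p = 0.0691). *PSPH* had 12.1, 9.75 and 14 CPM with IMP1088 and 15.3, 11.7 and 11 CPM with DDD86481 against 20, 20.2 and 17.6 CPM with DMSO, 1.61-fold (adjusted p = 0.0012) and 1.52-fold lower (adjusted p = 0.00319). *PSAT1*, *PYCR1*, *SHMT2* and *ASNS* passed in neither comparison, and *PYCR1* had log2 fold changes of -0.12 ± 0.123 and -0.11 ± 0.123.

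*MTHFD2* shows how far 1 library can carry a value in control cells. It had 157, 85.8 and 101 CPM with DDD86481 against 75.5, 92.6 and 84.6 CPM with DMSO, so the groups overlapped. The rise was called with all libraries (log2 fold change 0.45 ± 0.157, adjusted p = 0.031) but not without control DDD86481 replicate 1 (0.16, adjusted p = 0.353) or control DMSO replicate 1 (0.38, adjusted p = 0.0779). In the fit of only these groups 3 of the 9 enzymes were called in place of 5, with *MTHFD2* (adjusted p = 0.15) and *PHGDH* (adjusted p = 0.0639) lost. With IMP1088 the change of *MTHFD2*, 0.35 ± 0.157 on the log2 scale, was not called (adjusted p = 0.0947). The same DDD86481 library held 109 CPM of *PSAT1*, against 52.4 and 66.8 CPM in the others of its group, and 219 CPM of *SHMT2*, against 167 and 172 CPM.

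Whether an inhibitor acted differently in senescent and in control cells was tested directly, as an interaction. For IMP1088 the effect on 3 of the 9 enzymes was higher in senescent cells and on 0 lower, where 12.1% of all genes tested were higher and 14.2% lower. For DDD86481 the counts were again 3 and 0, beside 14.4% and 15.9%, and for both inhibitors 0 were lower at an unadjusted p under 0.05 or by DESeq2. *PHGDH* went in opposite directions, with log2 fold changes of 0.45 in senescent and -0.48 in control cells for IMP1088, a difference of 0.93 ± 0.184 (adjusted p = 0.00108). For DDD86481 these values were 0.44 and -0.41, a difference of 0.85 ± 0.184 (adjusted p = 0.00204). *PYCR1* had differences of 0.93 ± 0.175 (adjusted p = 0.000759) and 0.77 ± 0.175 (adjusted p = 0.00318). *ALDH18A1* rose in both states, by more in senescent cells, with differences of 0.46 ± 0.138 (adjusted p = 0.0178) and 0.45 ± 0.138 (adjusted p = 0.0187).

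Markers of senescence and of proliferation moved with the inhibitors too. In senescent cells *CDKN1A* was 1.61-fold lower with IMP1088 and 1.53-fold lower with DDD86481, *CDKN2B*, another cell-cycle inhibitor gene, was 2.13-fold and 2.08-fold lower, and *LMNB1* was 2.04-fold and 1.98-fold higher. In control cells *LMNB1* was 2.63-fold and 2.43-fold lower. *MKI67*, a gene of dividing cells, had 12.9 to 32.2 CPM there with DMSO, 3.21 to 4.42 CPM with IMP1088 and 2.9 to 5.9 CPM with DDD86481. *CDKN2A*, which encodes the cell-cycle inhibitor p16, was 1.53-fold and 1.55-fold lower in control cells with the inhibitors, but 2-fold higher with senescence. *CDKN1A*, *CDKN2B* and *IL1B*, all higher with senescence, were not called in control cells with either inhibitor. There *IL1B* was 1.46-fold and 1.45-fold higher (adjusted p = 0.0605 and 0.0625, edgeR) and *CDKN2B* 1.1-fold and 1.19-fold higher. *CDKN1A* was 1.09-fold and 1.11-fold lower. In all senescent libraries *MKI67* had at most 3 counts. *LMNB1* had opposite directions in the states, as *PHGDH* did, with differences of 2.42 ± 0.4 and 2.27 ± 0.401 (adjusted p = 0.000218 and 0.000406), and the part of proliferation in the results for the enzymes was not tested.

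Senescent cells with DMSO, the baseline of the inhibitor effects in that state, held less of the 3 enzymes whose effects differed: *PHGDH* ended at 51.6 ± 1.11 CPM with IMP1088, still under the 99.9 ± 8.46 CPM of control cells with IMP1088. *ALDH18A1* stood at 217 ± 4.1 CPM in senescent and 252 ± 20.5 CPM in control cells with IMP1088. *PYCR1* stood at 133 ± 2.62 CPM in senescent and 100 ± 15 CPM in control cells with IMP1088, the reverse of their order with DMSO. The called differences held in all 12 fits that left out 1 library, with the highest adjusted p at 0.0481 for *ALDH18A1* with IMP1088 and 0.0493 with DDD86481. For *CTH* the difference was 0.21 ± 0.33 with IMP1088 and 0.11 ± 0.334 with DDD86481 (adjusted p = 0.663 and 0.837), an error too wide to place the effects apart or together. *PSAT1*, *PSPH*, *SHMT2*, *MTHFD2* and *ASNS* did not pass, with adjusted p from 0.213 to 1 over both inhibitors.

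**Figure D3:**
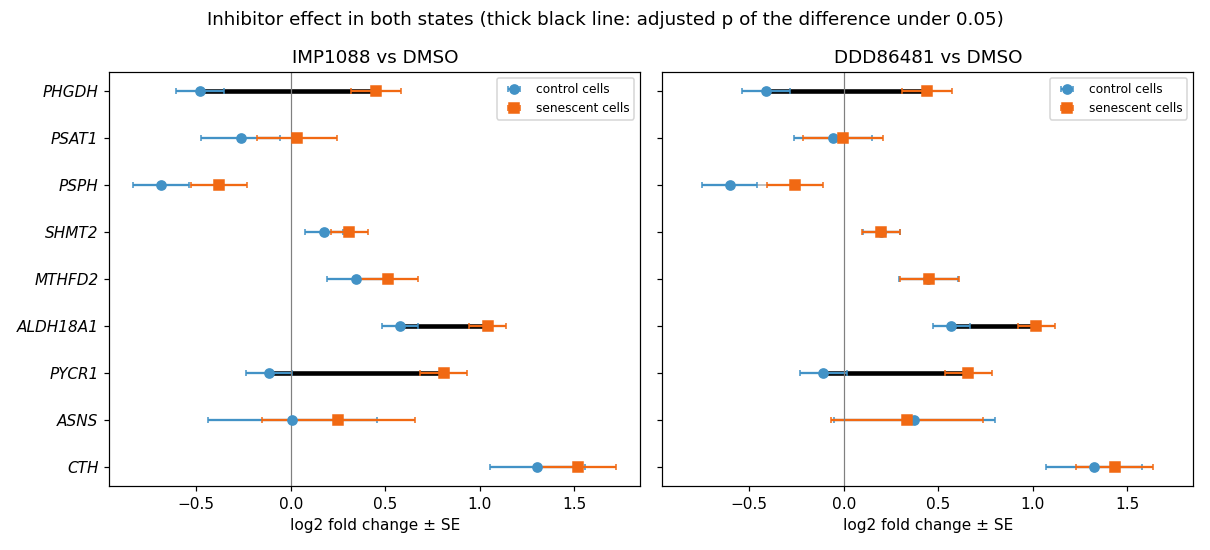
Log2 fold change of each inhibitor against DMSO (horizontal axis, whiskers for the SE) in control cells (circles) and senescent cells (squares) for the 9 enzymes tested, joined by a thick black line where the difference between states had an adjusted p under 0.05. *PHGDH*, *ALDH18A1* and *PYCR1* carry the thick line with both inhibitors, and *PHGDH* lies on opposite sides of 0.

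A list of 6 transcription factors was followed, all tested, of which not every one is an established driver of these enzymes. In senescent cells 4 were higher with IMP1088 (20.6% of all genes) and 3 with DDD86481 (20.1%). There 0 were lower in edgeR, at an unadjusted p under 0.05 or in DESeq2, beside 23.9% and 23.1% of all genes. In control cells each inhibitor raised 3 and lowered 1, beside 16.3% and 17.4% of all genes with IMP1088 and 17.8% and 18.7% with DDD86481. With senescence 4 were higher and 2 lower, beside 32.5% and 36%. *ATF4* had 146, 208 and 179 CPM with DMSO, 463, 468 and 431 CPM with IMP1088 and 460, 437 and 419 CPM with DDD86481. It rose by 1.35 ± 0.138 on the log2 scale with the former (adjusted p = 1.7e-07) and by 1.30 ± 0.138 with the latter (adjusted p = 3.04e-07), and all treated libraries lay above those with DMSO. In control cells *ATF4* had 235, 267 and 348 CPM with DMSO, a level from which senescent cells differed by -0.67 ± 0.136 (adjusted p = 0.000201), and its log2 fold changes there were 0.38 ± 0.135 with IMP1088 (adjusted p = 0.0382) and 0.32 ± 0.135 with DDD86481 (adjusted p = 0.073). The effect was larger in senescent than in control cells by 0.98 ± 0.192 (adjusted p = 0.00104) and 0.99 ± 0.192 (adjusted p = 0.000927). *ATF4* mRNA is no measure of ATF4 protein, whose translation is regulated.

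*DDIT3*, which encodes the stress factor CHOP, was higher with senescence (0.71 ± 0.207, adjusted p = 0.00467) and rose with the inhibitors in both states, with log2 fold changes of 1.75 ± 0.202 and 1.31 ± 0.201 in senescent cells and 1.78 ± 0.204 and 1.61 ± 0.205 in control cells for IMP1088 and DDD86481. *CEBPB*, a C/EBP partner and a driver of the secretory programme of senescent cells, was higher with senescence (0.88 ± 0.142) and with each inhibitor, by 0.53 and 0.81 in senescent and 0.88 and 0.94 in control cells. *CEBPG*, a partner of ATF4, was called higher with senescence (0.47 ± 0.139, adjusted p = 0.00559) and with DDD86481 in control cells (0.43 ± 0.139, adjusted p = 0.0214). *MYC* was higher in senescent than in control cells with DMSO (1.14 ± 0.148) and lower with both inhibitors in control cells, by -0.54 and -0.68. *NFE2L2*, which encodes the oxidative stress factor NRF2, was lower with senescence (-1.02 ± 0.0926) and called higher with IMP1088 in senescent cells (0.25 ± 0.0923, adjusted p = 0.0318). Apart from *ATF4*, no factor of the list passed the test of a difference between states, which does not show that their effects were alike.

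**Figure D4:**
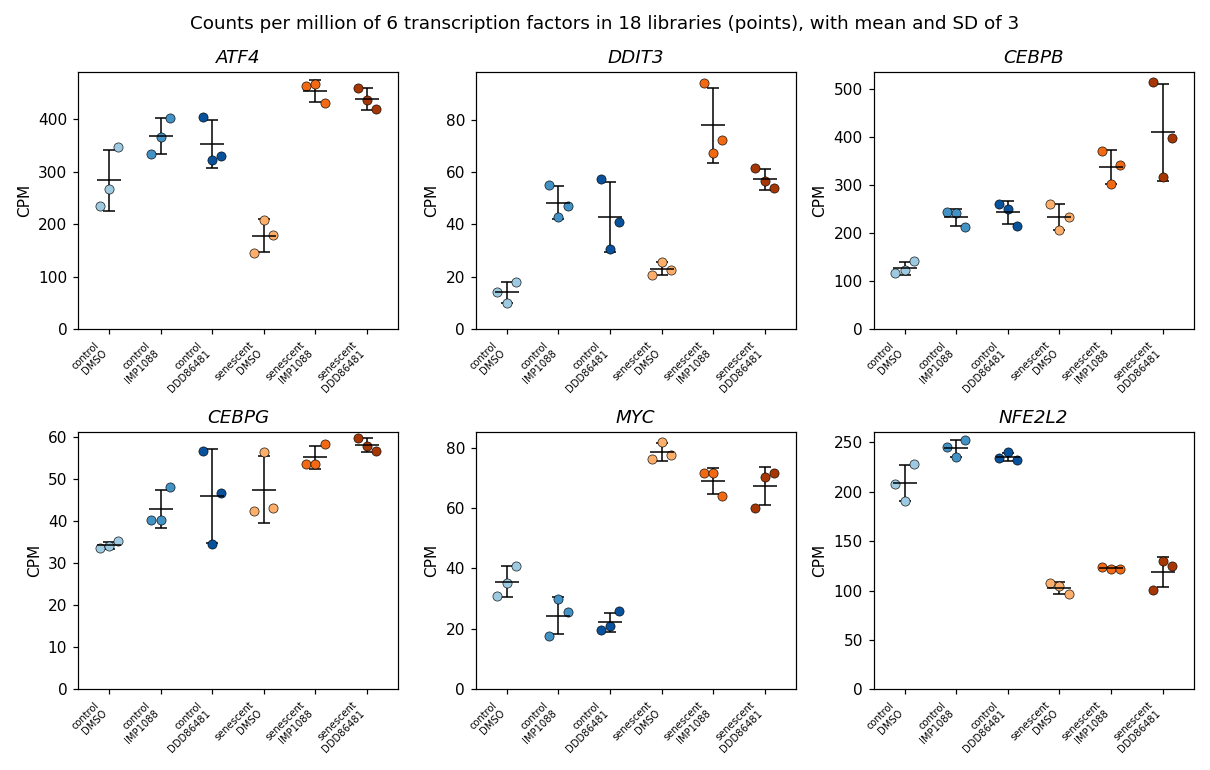
CPM (vertical axes, from 0, with a scale for each gene) of 6 transcription factors in each of 18 libraries, with points for libraries, horizontal bars for the mean and whiskers for the SD of 3 libraries. *ATF4* runs from 146 to 208 CPM in senescent cells with DMSO and from 419 to 468 CPM with either inhibitor, and *MYC* is higher in all 9 senescent libraries than in the 9 control libraries.

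Around the serine and folate enzymes, 21 of 24 listed genes of serine, glycine and one-carbon metabolism were tested. With senescence 9 were higher and 9 lower, where 32.5% of all genes were higher and 36% lower. IMP1088 raised 3 and lowered 4 in senescent cells and DDD86481 raised 4 and lowered 5, shares near those of all genes. *ALDH1L2*, a mitochondrial folate enzyme downstream of MTHFD2, had 28, 34.9 and 28.9 CPM with DMSO, 67.4, 68.3 and 70.2 CPM with IMP1088 and 55.4, 60.1 and 75.8 CPM with DDD86481 (log2 fold changes 1.17 ± 0.245 and 1.06 ± 0.245). *GCAT*, which breaks down the threonine product that yields glycine, rose by 0.99 ± 0.108 and 0.84 ± 0.108, and *SLC25A32*, the mitochondrial folate carrier, by 0.87 ± 0.121 and 0.82 ± 0.121. *MTHFD1L*, the mitochondrial formate-producing enzyme, fell from 65.6, 66.4 and 70.6 CPM to 40, 45 and 40.3 CPM with IMP1088 and 42.6, 42.3 and 40 CPM with DDD86481. *SRR*, serine racemase, fell by 0.56 and 0.67, and *SFXN3*, a serine transporter of mitochondria, by 0.50 and 0.60 on the log2 scale. *SLC25A32* was the named gene of this list whose rise differed between states with both inhibitors (0.61 ± 0.17 and 0.60 ± 0.17, adjusted p = 0.0129 and 0.0127). In control cells IMP1088 raised 5 genes of the list and lowered 7 (16.3% and 17.4% of all genes), and DDD86481 raised 6 and lowered 8 (17.8% and 18.7%).

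Of 13 genes of asparagine, aspartate, glutamate and alanine metabolism, 10 were tested, and 9 of these were higher and 1 lower with senescence, where 32.5% of all genes were higher and 36% lower. IMP1088 raised 3 and lowered 4 in senescent cells (20.6% and 23.9% of all genes), and DDD86481 raised 2 and lowered 4 (20.1% and 23.1%). *GPT2*, the mitochondrial alanine transaminase, rose by 0.59 ± 0.103 and 0.56 ± 0.103 and *GFPT1*, which starts hexosamine synthesis with glutamine's nitrogen, by 0.50 ± 0.0889 and 0.60 ± 0.089. *GFPT2*, from 591 to 637 CPM in senescent cells with DMSO against 26.4 to 38.2 CPM in control cells, fell by 0.47 and 0.56, and *NIT2*, an omega-amidase, by 0.39 and 0.38. For a difference between states, edgeR and DESeq2 called 0 of the 10 with either inhibitor, and 0 had an unadjusted p under 0.05. Of all genes tested, that difference was higher for 12.1% and lower for 14.2% with IMP1088, and 14.4% and 15.9% with DDD86481. In control cells IMP1088 raised 2 and lowered 2 (16.3% and 17.4% of all genes), and DDD86481 raised 3 and lowered 2 (17.8% and 18.7%).

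The genes around proline had the most calls upward among the metabolic lists in senescent cells: of 16 listed, 15 were in the table and 11 tested, 6 higher and 2 lower with IMP1088, beside 20.6% and 23.9% of all genes. With DDD86481 5 were higher and 0 lower, beside 20.1% and 23.1%, with 2 lower at an unadjusted p under 0.05 and 1 by DESeq2. *ASS1*, which makes argininosuccinate on the way to arginine, had 49.6, 42 and 55.6 CPM with DMSO, 91.8, 86.3 and 94.1 CPM with IMP1088 and 87.8, 79.7 and 96.4 CPM with DDD86481 (0.89 ± 0.113 and 0.84 ± 0.113). *OAT*, which links ornithine to the proline precursor, had 143, 138 and 143 CPM with DMSO, 219, 215 and 230 CPM with IMP1088 and 237, 232 and 223 CPM with DDD86481 (0.65 ± 0.0896 and 0.71 ± 0.0896). *PEPD*, which frees proline from dipeptides of collagen breakdown, rose by 0.52 ± 0.107 and 0.63 ± 0.107. In control cells *ASS1* had log2 fold changes of -0.11 and -0.13 and *OAT* of 0.042 and -0.016, which did not pass, and the differences between states were 1.00 and 0.97 for *ASS1* (adjusted p = 0.000166 and 0.000222) and 0.61 and 0.72 for *OAT* (adjusted p = 0.00171 and 0.000366). Of the 11 genes, 5 were higher and 2 lower with senescence (32.5% and 36% of all genes), and 1 was higher and 2 lower with IMP1088 in control cells (16.3% and 17.4%). DDD86481 raised 0 there, by edgeR, by DESeq2 or at an unadjusted p under 0.05, and lowered 2, beside 17.8% and 18.7% of all genes.

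Around *CTH*, 17 of 20 listed genes of methionine, transsulfuration and glutathione metabolism were tested, with 9 higher and 5 lower in senescent cells with DMSO, beside 32.5% and 36% of all genes. IMP1088 raised 3 and lowered 4 in senescent cells, and DDD86481 raised 4 and lowered 4, near the background. *CDO1*, which oxidizes cysteine, had 5.62, 5.85 and 7.03 CPM with DMSO, 11.4, 9.95 and 10.5 CPM with IMP1088 and 10.8, 11.8 and 10.7 CPM with DDD86481 (0.78 ± 0.162 and 0.84 ± 0.162). *GGCT*, of glutathione breakdown, rose by 0.58 and 0.50 and *MPST*, which takes sulfur from a cysteine product, by 0.45 and 0.55. *CHAC2*, which degrades glutathione, fell by 2.31 ± 0.396 and 1.25 ± 0.346 from a low level of 0.809 to 1.91 CPM, *MTAP*, of methionine salvage, by 0.70 and 0.66, and *SQOR*, which oxidizes hydrogen sulfide, by 0.50 and 0.56. In control cells, where *CTH* rose, 0 of the 17 were higher with either inhibitor by edgeR, by DESeq2 or at an unadjusted p under 0.05, and 6 were lower with each. Of all genes, 16.3% were higher and 17.4% lower there with IMP1088, and 17.8% and 18.7% with DDD86481. Between states, the IMP1088 effect was higher in senescent cells for 4 of the 17 and lower for 0 (12.1% and 14.2% of all genes). An unadjusted p under 0.05 and DESeq2 each had 1 lower. With DDD86481 5 were higher and 1, *MTAP*, lower (14.4% and 15.9%). The differences were 0.72 and 0.77 for *CDO1*, 0.86 and 0.996 for *GGCT* and 0.63 and 0.82 for *MPST* (adjusted p from 0.00255 to 0.0248).

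**Figure D5:**
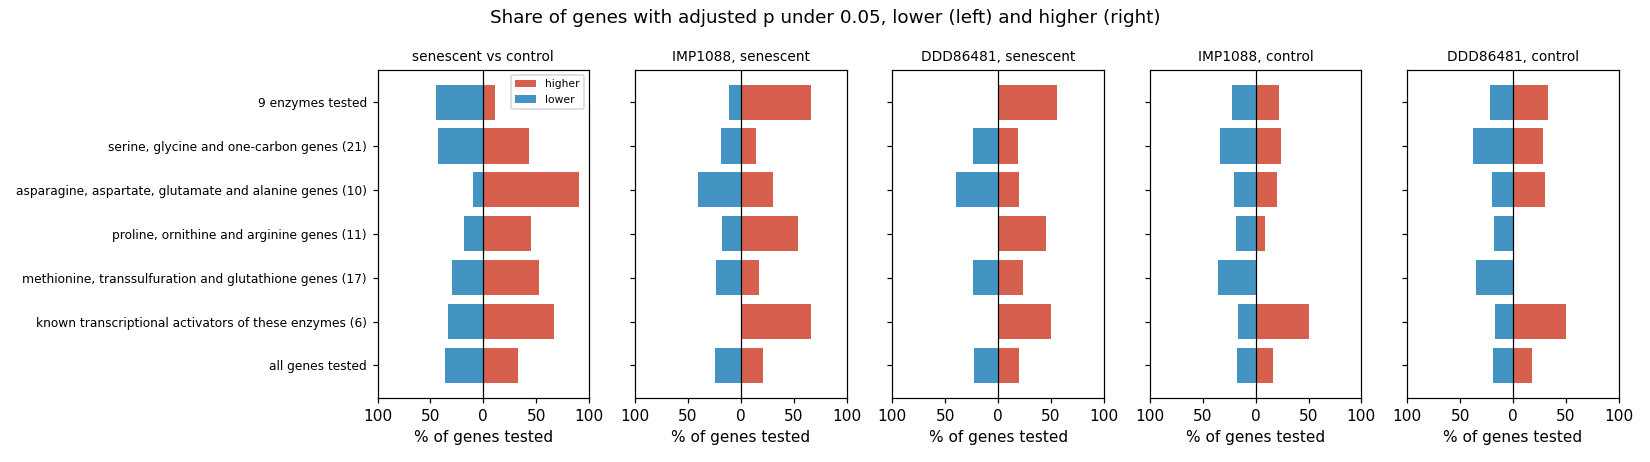
Share of genes tested with an adjusted p under 0.05 that were lower (bars to the left of 0) or higher (bars to the right), in percent, for the 9 enzymes, 5 lists of related genes (number tested in brackets) and all genes tested, with a panel for each comparison. The 9 enzymes and the proline list lean to higher with the inhibitors in senescent cells, where all genes tested show 20.6% higher and 23.9% lower with IMP1088.

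Genes whose pattern lay nearest to *PHGDH* were sought over the 6 group means, centred on the log2 CPM scale, among 9366 other genes with a mean of at least 10 CPM. The nearest were *MCM2* (Euclidean distance 0.197), which encodes a subunit of the DNA replication helicase, *LUC7L3* (0.231), a splicing-related gene, and *HCFC1R1* (0.24). *MCM2* had 25.4 to 30.8 CPM in control cells with DMSO, 6.98 to 9.89 CPM in senescent cells with DMSO and 10.2 to 11.8 CPM in senescent cells with IMP1088. For *ASNS* the nearest were *CHUK* (0.0609), *RASAL2* (0.0977) and *CNDP2* (0.107), but its group means rest on 4 to 22 counts per library, so these distances describe little more than a shallow slope across groups.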

How the data were processed

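Poly(A) RNA of 18 libraries was sequenced by the authors, who deposited read counts as 1 table, unnormalized, with a row for each gene symbol. The study's methods name directional libraries and TopHat in first-strand mode on hg19 with Ensembl annotation, and its software list names HTSeq, whereas the submitters' processing notes name DRAGEN, STAR 2.7.8a and DESeq2 1.32.0 on hg38. Which of these made the deposited counts, and with which counting settings, is not given in the sources used here, so counts of overlapping or duplicated genes are uncertain. Groups came from the labels. The study describes its replicates as independent experiments, while the labels do not say whether a replicate number marks a shared experiment.

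In edgeR 4.0.16 (R 4.3.3), filterByExpr kept 14341 genes with 99.962% of counts, and 6836 rows held no count. Counts were TMM-scaled and tested by quasi-likelihood in 1 fit of 18 libraries, with Benjamini-Hochberg adjustment over all genes tested, a threshold of 0.05 and SEs derived from F. DESeq2 1.42.0 and the settings in the closing section were alternatives. Lengths and exon overlaps came from GENCODE v44 on GRCh37, and the table of promoters from RefSeq. No library pair of a group was a duplicate (chi-square per gene at least 5.26).

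The members, lists, motifs and tests were chosen with earlier results of these data known. All 10 members were named. From each list, up to 3 genes that rose and up to 3 that fell with both inhibitors in senescent cells were named, by mean absolute log2 fold change, and any activator could be named. A gene this rule selects is not reported here.

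Replicate numbers are shared across groups. The departures of libraries from the mean of their group, matched by number, were correlated. They lay above 0.1 in each pair for control with senescent cells in DMSO (0.185, 0.165 and 0.275). The same held for control cells with DMSO and IMP1088 (0.679, 0.164 and 0.43). Correlations between libraries of different numbers were not computed, so these values cannot show whether the numbers pair libraries. The inhibitor groups of a state, not compared with each other here, also had every pair above 0.1 (0.242, 0.589 and 0.297 in control and 0.259, 0.289 and 0.372 in senescent cells). For each inhibitor against DMSO in senescent cells and for DDD86481 against DMSO in control cells at least 1 pair was under 0.1.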

Additional observations from a re-analysis of the deposited data

Results flagged for a closer look

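The effect of an inhibitor differed between senescent and control cells for 3 enzymes, by the interaction test in edgeR. For *PHGDH* the log2 fold change was higher in senescent than in control cells by 0.929 with IMP1088 and 0.853 with DDD86481. For *PYCR1* it was higher by 0.926 with IMP1088 and 0.767 with DDD86481. For *ALDH18A1* it was higher by 0.465 with IMP1088 and 0.451 with DDD86481. For *PHGDH* and *ALDH18A1* treated and DMSO libraries did not overlap in either state, and for *PYCR1* they overlapped in control cells. The DMSO libraries are shared by both inhibitors, so the second inhibitor is no independent repeat. Groups of 3 libraries are too small for the test of single outlying samples.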

How the results depend on the processing

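Each result was recomputed under 7 other settings and without each library of the groups compared in turn. The number of enzymes called stayed within 1.5 times under every setting but 1: for DDD86481 in control cells it was 3 instead of 5 when only those groups were fitted. Without 1 library it ran from 4 to 5 for senescent against control cells, from 3 to 5 for DDD86481 in senescent cells, from 5 to 6 for IMP1088 there and from 4 to 5 for DDD86481 in control cells. Of 927 recomputed fold changes, 851 kept direction and side of the threshold, 24 lost the call, 6 gained it and 46 changed sign, all of the last in values not called. Upper quartile scaling moved the median of all genes by -0.155 for senescent against control cells, turned *SHMT2* there to -0.044, *ASNS* with IMP1088 in control cells to -0.041, and the DDD86481 interactions of *ASNS* and *SHMT2* to 0.012 and 0.050. With only the compared groups, *PSAT1* with DDD86481 in senescent cells was 0.030 and the DDD86481 interactions of *ASNS* and *SHMT2* were 0.0068 and 0.038, and with no filter that of *MTHFD2* was -0.0046. Without 1 library, signs turned within these ranges: *ASNS* from -0.042 to 0.66 (IMP1088, senescent), -0.34 to 0.34 (IMP1088, control), -0.082 to 0.65 and -0.36 to 0.37 (interactions), *PSAT1* from -0.12 to 0.25 and -0.16 to 0.21 (IMP1088 and DDD86481, senescent), -0.41 to 0.15 (DDD86481, control) and -0.11 to 0.44 (its interaction), *PYCR1* from -0.27 to 0.010 (DDD86481, control), and the DDD86481 interactions of *SHMT2* from -0.052 to 0.17, *MTHFD2* from -0.12 to 0.33 and *CTH* from -0.088 to 0.48. The cause was not tested. *MTHFD2* gained a call for senescence with RLE size factors (0.36), DESeq2 (0.36), no filter (0.36) and only the compared groups (0.35), and for IMP1088 in control cells with no filter (0.34), and lost that for DDD86481 in control cells with upper quartile scaling (0.38). Summing *CBS* and *CBSL* changed no value.

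With the replicate block, the number of enzymes called was 5, 7, 5, 4, 5, 3 and 3 in the order senescence, IMP1088 and DDD86481 in senescent cells, the same in control cells, and the interactions, and no call changed. The block turned the uncalled values of *ASNS* with IMP1088 in control cells to -0.0093 and of *SHMT2* in the DDD86481 interaction to 0.0012. Depth limits *ASNS* (4 to 22 counts) and *CBS* (0 to 4 counts).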
